A study of Mus musculus with 6 samples.

Results

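The extracellular matrix genes described here are 51 genes for matrix proteins other than collagens, taken by symbol from the 55401 gene rows of the deposited table. They fall into 34 genes of fibroblast matrix, 11 of basement membrane and 6 of the matrix of neural tissue. Each symbol matched 1 row, and 49 of the 51 passed the filter on low counts; Mfap5 and Hapln1 did not. Gene expression had been measured by bulk RNA sequencing in mouse cortex of the C57BL/6 strain at embryonic day 18. There were 3 libraries of wild-type (WT) embryos and 3 of Csmd3-/- embryos, called knockout here, all from matings of Csmd3 heterozygous parents. The sources used here do not give the part of Csmd3 that was removed, nor whether a library holds 1 embryo or several. The labels do not say whether libraries of a group came from separate embryos. Their Xist and Y-linked counts differed, as given below, so they were not all repeats of the same material. The p-values measure only the spread between these libraries, part of which may be technical.

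The matrix of the meninges and of vessel walls is made largely by fibroblasts and mural cells. In it, small leucine-rich proteoglycans bind and space collagen fibrils, lysyl oxidases cross-link collagen and elastin, and fibrillin microfibrils carry elastin and store latent TGF-beta. Basement membranes are thin sheets under the pial surface and around vessels, in which laminin trimers of an alpha, a beta and a gamma chain form a network tied together by nidogens and the heparan sulfate proteoglycan perlecan. Matrix within neural tissue has little collagen and is built from hyaluronan, the lectican chondroitin sulfate proteoglycans, tenascins and link proteins.

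Library totals lay between 54244288 and 68269607 deposited counts, with 24460 to 25122 genes detected. Csmd3 itself had 992, 765 and 867 counts in WT libraries 1 to 3 and 675, 653 and 543 in knockout libraries 1 to 3. It was lower in all 3 knockout libraries but far from absent (log2 fold change -0.59, SE 0.13, adjusted p = 0.0233). Ttr, the marker of choroid plexus, had 4, 0 and 0 counts in WT and 131, 2262 and 25057 in knockout, so knockout libraries 2 and 3 stood apart. Results that change without these 2 libraries are named at the end. Xist and Y-linked counts differed among libraries of both groups. Xist had 10817, 77043 and 115703 counts in WT and 3875, 123157 and 634 in knockout. The sum of Ddx3y, Eif2s3y, Kdm5d and Uty was 8976, 1879 and 1 in WT and 12749, 2433 and 9959 in knockout. Whether a library with counts of both held more than 1 embryo was not tested. Since Y-linked counts differed, a fit with Y-linked expression as a covariate was added. Markers of cortical projection neurons, which check the tissue label, summed to 3359 to 3859 CPM (counts scaled to library size) in WT and 3772 to 4289 CPM in knockout. By edgeR, 1 of these 10 markers was called lower and 0 higher, with log2 fold changes from -0.39 to 0.85. At an unadjusted p under 0.05, 2 were higher and 2 lower.

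Of the 49 genes tested, 32 rose in knockout, 1 fell and 16 did not pass the test. Over all 19844 genes tested, 5.21% rose and 2.53% fell. In every statement here, log2 fold changes are knockout minus WT, and adjusted p-values come from edgeR's quasi-likelihood test with Benjamini-Hochberg adjustment over all genes tested, at a threshold of 0.05. The median log2 fold change was 0.83 over the 49 genes and 0.00 over all genes tested, and 20 of the 49 rose by at least 2-fold. All 3 knockout libraries lay above all 3 WT libraries for 37 of the 49, against 15.6% of all genes tested, and below them for 1, against 13.5%. In bulk samples more cells of a type and more RNA per cell cannot be told apart, and the same holds for fewer and less. The 3 classes differed in their counts. In the fibroblast matrix 22 of 33 tested genes rose (66.7%, median log2 fold change 0.94), and in the basement membrane class 10 of 11 rose (90.9%, median 1.04). In the neural class none of 5 rose and 1 fell (median -0.22). Over 5 genes, none higher is near the share over all genes tested. By edgeR, no neural gene was higher at an unadjusted p under 0.05 either, and DESeq2 and limma-voom also called 0 higher. No fibroblast or basement membrane gene was lower at an unadjusted p under 0.05 in edgeR, and neither other tool called one lower.

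**Figure D1:**
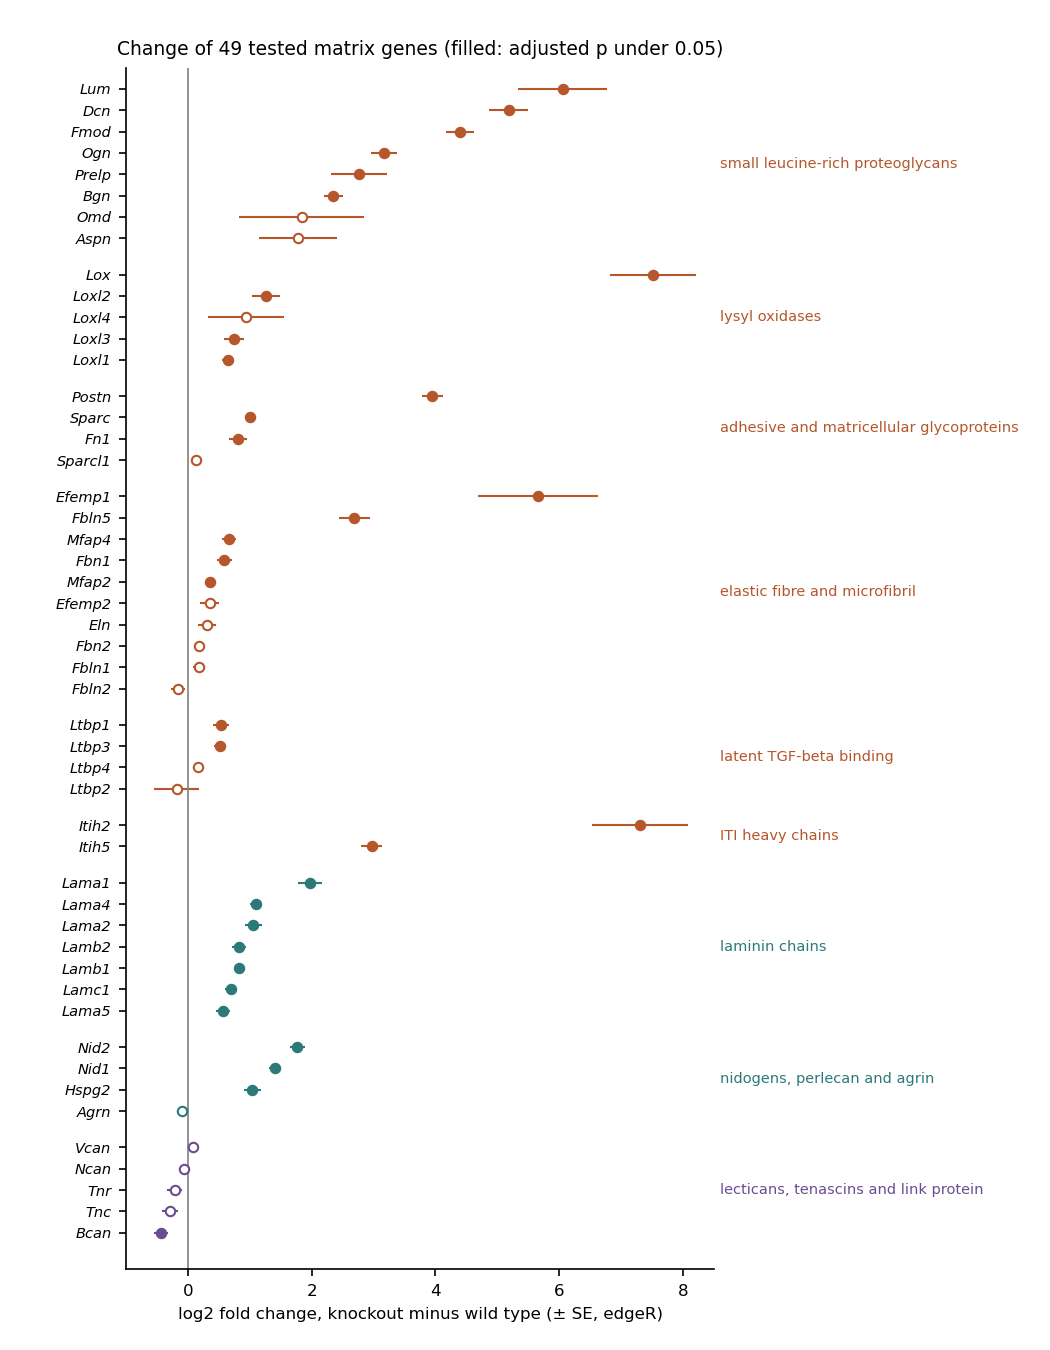
Log2 fold change (knockout minus WT) of the 49 tested genes, grouped by role, with bars of 1 SE; filled points passed the edgeR test at an adjusted p of 0.05. Fibroblast and basement membrane genes lie mostly right of 0, with Lox at 7.51 as the highest, and the neural genes lie between -0.44 and 0.09.

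Upstream sequences are shown for 4 genes, 1 for each behaviour met below: Fmod and Postn as fibroblast matrix genes that were low in WT and rose many-fold, Nid1 as a basement membrane gene that rose, and Bcan as the neural gene that fell. They come from RefSeq on GRCm38.p6, which matched 35 of the 51 genes. Those of Fmod, Postn and Bcan end at the base before the RefSeq start, which for Bcan is 127 bases before the GENCODE start. That of Nid1 ends at the base before its GENCODE start. All are given 5′ to 3′ on the strand of the gene. Capitals mark matches on either strand to a CCAAT box, a TATA box (TATAAA), a GC box (GGGCGG), an AP-1 motif (TGACTCA), a TEAD motif (GGAATG) or a Smad motif (CAGACA), so CCGCCC and ATTGG are matches on the other strand. No matches overlap in these windows. The stretches are chr1:134037004-134037253 (plus strand, Fmod), chr3:54360857-54361106 (plus, Postn), chr13:13437352-13437550 (plus, Nid1, cut to 199 bases to leave out an annotated exon) and chr3:88000357-88000606 (minus, Bcan).
Fmod: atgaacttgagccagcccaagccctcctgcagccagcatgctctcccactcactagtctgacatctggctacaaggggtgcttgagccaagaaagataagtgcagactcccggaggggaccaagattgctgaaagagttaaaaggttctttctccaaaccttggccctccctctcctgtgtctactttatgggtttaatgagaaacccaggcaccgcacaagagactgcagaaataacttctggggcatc
Postn: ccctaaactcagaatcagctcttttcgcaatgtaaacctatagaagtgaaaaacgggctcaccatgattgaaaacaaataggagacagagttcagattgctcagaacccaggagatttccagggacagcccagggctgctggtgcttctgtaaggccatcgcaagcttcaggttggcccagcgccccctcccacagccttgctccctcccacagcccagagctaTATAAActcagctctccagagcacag
Nid1: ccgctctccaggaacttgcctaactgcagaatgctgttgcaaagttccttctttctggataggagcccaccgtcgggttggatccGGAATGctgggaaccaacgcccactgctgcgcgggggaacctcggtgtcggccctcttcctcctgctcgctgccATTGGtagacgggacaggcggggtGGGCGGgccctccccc
Bcan: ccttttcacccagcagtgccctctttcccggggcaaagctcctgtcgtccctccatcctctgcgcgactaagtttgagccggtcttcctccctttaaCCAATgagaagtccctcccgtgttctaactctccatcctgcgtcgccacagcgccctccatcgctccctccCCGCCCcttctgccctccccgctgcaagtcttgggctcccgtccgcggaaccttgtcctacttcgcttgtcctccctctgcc
Postn has a TATAAA whose first base lies 26 bases before the start, and Fmod has none of the 6 motifs. Nid1 has GGGCGG 16 bases, an inverted CCAAT 40 bases and GGAATG 114 bases before its GENCODE start. Bcan has an inverted GGGCGG 82 bases and CCAAT 153 bases before its RefSeq start. Over all 32851 RefSeq promoters, the 250 bases upstream held TATAAA in 12.4%, CCAAT in 33.8%, GGGCGG in 32.7%, TGACTCA in 4.46%, GGAATG in 12.6% and CAGACA in 17.1%. Of the 35 genes, 4 held TATAAA, 9 CCAAT, 20 GGGCGG, 1 TGACTCA, 3 GGAATG and 3 CAGACA. The median GC content was 64.4% over 7 basement membrane genes, 56.2% over 22 fibroblast genes, 54.4% over 6 neural genes and 52.4% over all promoters. These matches describe the letters only.

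Small leucine-rich proteoglycans had the highest median log2 fold change of the roles with more than 2 genes (2.97 over 8 genes). Of the 8, 6 rose: Dcn, Lum, Fmod, Bgn, Ogn and Prelp. Their summed level went from 15.3 ± 2.22 CPM in WT to 135 ± 20.5 in knockout (SD, n = 3). Decorin, which binds collagen I fibrils and TGF-beta, is encoded by Dcn (ENSMUSG00000019929.16, chromosome 10, 97479609 to 97518143, plus strand, mm10). Dcn had 77, 56 and 38 counts in WT libraries 1 to 3 and 3222, 1672 and 1829 in knockout libraries 1 to 3. The groups were far apart, with knockout library 1 the highest (log2 fold change 5.18, SE 0.32, adjusted p = 0.000168). Lum, for lumican, a regulator of fibril diameter, had 19, 0 and 8 counts in WT and 644, 737 and 562 in knockout. The WT libraries were close to the floor of 12 counts over a group, and all 3 knockout libraries were alike (6.06, SE 0.72, adjusted p = 0.00802). That fold change rests on few WT counts: it was 7.17 without WT library 1. Fmod, for fibromodulin, which also guides lysyl oxidase to collagen, had 49, 40 and 41 counts in WT and 1373, 756 and 830 in knockout (4.39, SE 0.23, adjusted p = 1.39e-05). Its WT libraries hardly differed from each other, and every knockout library was many times higher.

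Bgn, for biglycan, the close relative of decorin, had the highest WT level per kilobase of the role. Its levels were 13.1, 11.0 and 9.93 CPM in WT and 57.5, 48.4 and 68 CPM in knockout. Knockout library 3 was the highest and the groups did not overlap (2.35 on the log2 scale, SE 0.15, adjusted p = 3.62e-05). Ogn, for osteoglycin, had 58, 81 and 82 counts in WT and 868, 619 and 653 in knockout (3.17, SE 0.21, adjusted p = 3.68e-05). Prelp, for a proteoglycan that anchors basement membranes to connective tissue, had 36, 19 and 12 counts in WT and 146, 116 and 215 in knockout (2.77, SE 0.46, adjusted p = 0.00737). In both genes the lowest knockout library stood well above the highest WT library. Aspn (asporin) had 15, 28 and 4 counts against 49, 56 and 65 (1.78, SE 0.63, adjusted p = 0.132). Omd (osteomodulin) had 15, 0 and 4 against 30, 27 and 17 (1.84, SE 1.01, adjusted p = 0.334). Neither passed the test, although neither overlapped between groups.

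The make-up of this family differed between the groups as well as its amount. Per kilobase of exon, Bgn took 60.5% ± 0.662 of the family's summed CPM in WT and 31.4% ± 3.45 in knockout (SD, n = 3). The share of Dcn was 5.32% ± 1.04 in WT and 19.8% ± 3.70 in knockout, that of Lum 1.94% ± 1.86 and 14.3% ± 3.68, and that of Fmod 7.33% ± 0.619 and 15.5% ± 2.30. For Bgn, Dcn, Lum and Fmod the shares of the 3 WT libraries did not overlap those of the 3 knockout libraries. The Ogn share was 16.5% ± 5.14 and 14.7% ± 0.202, which overlapped. With 3 libraries against 3, an exact permutation test of a share could not go below a two-sided p of 0.1, so no test is given for shares.

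**Figure D2:**
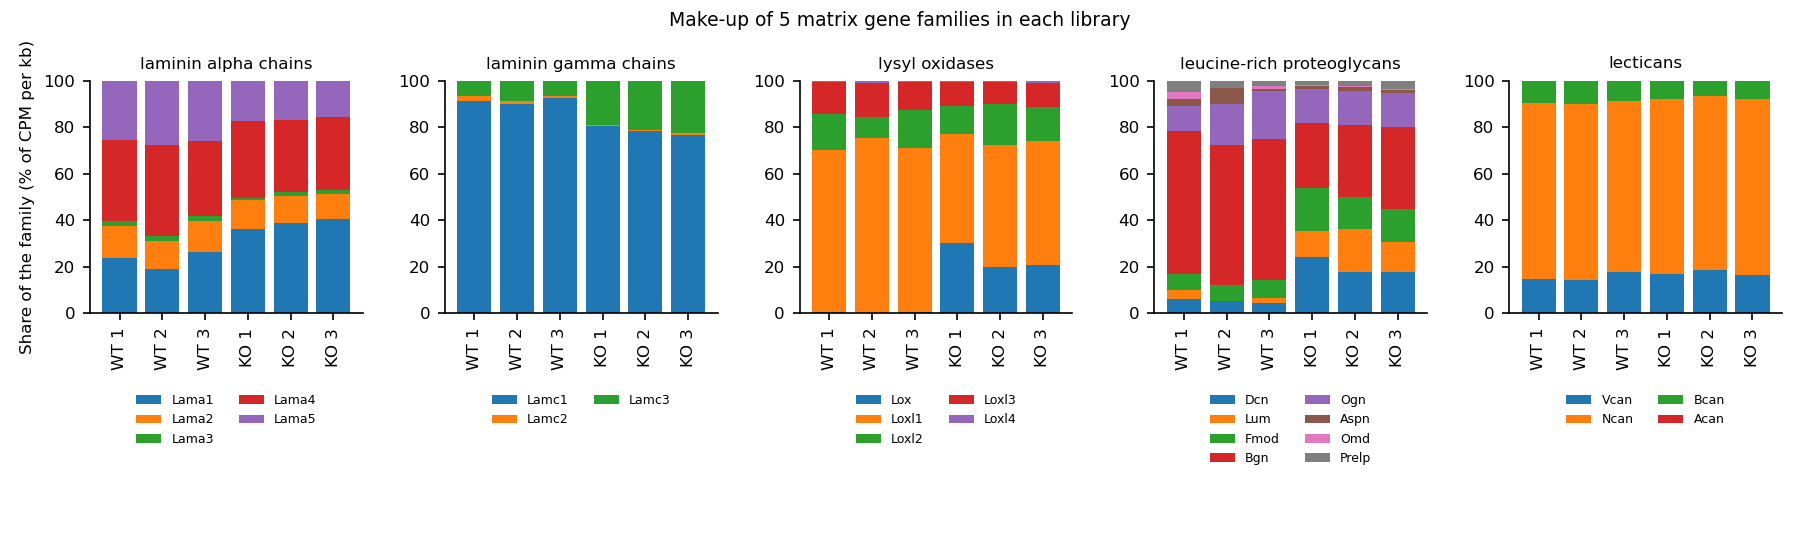
Share of each gene in its family's summed CPM per kilobase of exon, in percent, for each of the 6 libraries. Within the leucine-rich proteoglycans, lysyl oxidases and laminin alpha and gamma chains the make-up differs between WT and knockout, whereas that of the lecticans stays near 75% Ncan in both.

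Several of these genes lie side by side, with no coding gene between the neighbours named. Dcn and Lum are 47.0 kb apart on chromosome 10 and are followed by Kera (keratocan) and Epyc (epiphycan). Kera had 0 counts in all 6 libraries, and Epyc had 8 counts in knockout library 3 and 0 in the other libraries. On chromosome 13 the order is Ecm2, Aspn, Omd and Ogn, with gaps of 11.7, 14.9 and 15.2 kb. There Ogn rose, while Ecm2 had 101, 101 and 152 counts in WT and 167, 156 and 212 in knockout (log2 fold change 0.52, adjusted p = 0.33). On chromosome 1, Fmod and Prelp are 115.8 kb apart and both rose. Optc (opticin) lies 2.3 kb from Prelp and had 84, 104 and 78 counts in WT and 91, 89 and 110 in knockout (0.05, adjusted p = 0.95). Dcn and Lum, and Fmod and Prelp, thus rose as neighbours, while Ecm2, Aspn, Omd and Optc did not pass the test and Kera and Epyc had almost no counts.

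Lysyl oxidases, the copper enzymes that cross-link collagen and elastin, rose in 4 of 5 cases with a median log2 fold change of 0.94. Lox had 12, 0 and 8 counts in WT and 2072, 992 and 992 in knockout. The gene was near the floor in every WT library and high in every knockout library (7.51, SE 0.69, adjusted p = 0.00375). Its fold change was 8.20 without WT library 1, and limma-voom did not call it (adjusted p = 0.0899). Loxl1, the relative required for elastic fibre renewal, had 1095, 1162 and 1173 counts in WT and 2203, 1793 and 1768 in knockout (0.65, SE 0.10, adjusted p = 0.0055). Loxl2, active on basement membrane collagen, had 396, 225 and 443 in WT and 952, 988 and 802 in knockout (1.27, SE 0.23, adjusted p = 0.0119). Loxl3 had 301, 316 and 276 in WT and 661, 463 and 487 in knockout (0.75, SE 0.16, adjusted p = 0.0204). These 3 genes had non-overlapping groups but smaller changes than Lox. The Loxl2 call was lost without knockout library 3 (adjusted p = 0.0513). That of Loxl3 was lost when WT library 1 or 2, or else knockout library 1 or 3, was left out (highest adjusted p = 0.0907). Loxl4 was low throughout, at 10, 16 and 12 counts against 34, 15 and 29 (0.94, SE 0.62, adjusted p = 0.432), and its groups overlapped. Per kilobase, Lox took 0.287% ± 0.267 of the family's level in WT and 23.7% ± 5.79 in knockout, while Loxl1 took 72.1% ± 3.05 and 50.8% ± 3.57 (SD, n = 3).

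Of 4 adhesive and matricellular glycoproteins, 3 rose. Postn, for periostin, a protein of collagen-rich tissue that binds integrins, had 102, 133 and 101 counts in WT and 1967, 1663 and 1884 in knockout. The 3 libraries of each group lay close together and the fold change was 15.4 (log2 fold change 3.95, SE 0.17, adjusted p = 5.87e-06). Sparc, for osteonectin, a collagen-binding protein, stood at 110, 101 and 99.1 CPM in WT and 203, 190 and 232 CPM in knockout. It doubled without overlap (1.01, SE 0.09, adjusted p = 0.000188). Its relative Sparcl1 (hevin), made largely by astrocytes and endothelium, stood at 161, 179 and 158 CPM against 172, 176 and 197 CPM (0.13, SE 0.08, adjusted p = 0.387), with overlapping groups. Fn1, for fibronectin, the main integrin ligand of provisional matrix, stood at 134, 104 and 127 CPM in WT and 262, 194 and 185 CPM in knockout. Knockout library 1 was the highest and all 3 lay above WT (0.81, SE 0.15, adjusted p = 0.019). Its call was lost without WT library 1 (adjusted p = 0.0513), 2 (0.0701) or 3 (0.0616).

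Elastic fibre and microfibril genes were mixed: 5 of 10 tested rose, with a median log2 fold change of 0.36. Fbln5, for fibulin-5, which places elastin on microfibrils, had 56, 47 and 78 counts in WT and 499, 362 and 395 in knockout. The groups were widely separated (2.69, SE 0.24, adjusted p = 0.000243). Efemp1, for fibulin-3, had 8, 0 and 0 counts in WT and 250, 108 and 101 in knockout. In sequenced fragments, each of which added about 4 to a deposited count, that is 2 in WT against 115 in knockout, a 53.7-fold ratio with an exact 95% interval of 14.5 to 449. The edgeR value (5.66, SE 0.97, adjusted p = 0.0154) passed, but not without knockout library 3 (adjusted p = 0.0531), and it was 10.18 without WT library 1. Fbn1, for fibrillin-1, the backbone of microfibrils, had 1589, 1202 and 1478 counts in WT and 2521, 2095 and 2240 in knockout (0.59, SE 0.12, adjusted p = 0.0197). Its groups did not overlap, and its call was lost without WT library 2, or without knockout library 1 or 3 (highest adjusted p = 0.102). In this gene, 20.1% of the exon bases overlap Gm9913 on the opposite strand. Of the 51 genes, 6 have at least 5% of their exon bases in such an overlap: besides Fbn1, these are Loxl3 (11.6%, with Htra2), Prelp (9.7%, with Gm15851), Ltbp2 (9.3%, with D030025P21Rik), Nid2 (8.4%, with Rtraf) and Loxl2 (5.6%, with Gm27177). The sources used here do not say whether counting used strand, so reads of the overlapping genes cannot be told apart there.

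Microfibril-associated Mfap4 stood at 16.3, 14.6 and 18.3 CPM in WT and 26.4, 26.9 and 24.8 CPM in knockout (0.67 on the log2 scale, SE 0.11, adjusted p = 0.00886). Mfap2 (MAGP-1), abundant in both groups, stood at 60.7, 69.1 and 59.5 CPM against 83.6, 81.8 and 76.8 CPM (0.36, SE 0.08, adjusted p = 0.0318). Neither gene overlapped between the groups, and the smaller change, that of Mfap2, lost its call when any library but WT 2 was left out (highest adjusted p = 0.125). The structural components Fbn2 (0.18, adjusted p = 0.209), Eln (elastin; 0.31, 0.251), Fbln1 (0.17, 0.27), Fbln2 (-0.16, 0.447) and Efemp2 (fibulin-4; 0.36, 0.215) did not pass. Their WT levels ran from 12.4 ± 0.762 CPM for Efemp2 to 105 ± 8.44 CPM for Fbn2 (SD, n = 3). Before adjustment, the edgeR p was under 0.05 for Fbn2 (0.0439) and Efemp2 (0.0461). Why these genes did not pass was not tested. Mfap5, too low to be tested, had 5, 6 and 0 counts in WT and 53, 0 and 19 in knockout, or about 3 fragments against 18 (ratio 5.60, 95% interval 1.64 to 29.7). Its groups overlapped, with knockout library 2 at 0. Per kilobase, Fbn1 made up 20.1% ± 0.885 of the fibrillin level in WT and 25.1% ± 1.32 in knockout, and the libraries did not overlap.

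Latent TGF-beta binding proteins hold the inactive growth factor in the matrix. Of 4, 2 rose modestly. Ltbp3 stood at 48.2, 46.4 and 54.1 CPM in WT and 75.1, 72.3 and 65.1 CPM in knockout (0.52 on the log2 scale, SE 0.09, adjusted p = 0.00966). Ltbp1 stood at 15.1, 14.3 and 18.7 CPM against 24.0, 24.2 and 21.5 CPM (0.54, SE 0.13, adjusted p = 0.0341). All knockout libraries were above all WT libraries in both, but the Ltbp1 call was lost when any library but WT 3 was left out (highest adjusted p = 0.124). Ltbp4 (0.16, adjusted p = 0.273) and the low Ltbp2 (-0.18, adjusted p = 0.827) did not pass, and the Ltbp2 groups overlapped.

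Both heavy chains of the inter-alpha-trypsin inhibitor family listed here, secreted proteins that are known to become linked to hyaluronan, rose. Other heavy chain genes did not: Itih1 had no counts in any library, and Itih3 and Itih4 were not called higher or lower. Itih2 had 5, 0 and 0 counts in WT and 478, 216 and 228 in knockout. That is about 1 fragment against 230, a 215-fold ratio with an exact 95% interval of 38.2 to 8518, so the size of the fold is poorly set. The edgeR value was 7.31 (SE 0.78, adjusted p = 0.00177) and 11.19 without WT library 1. Itih5 lies 22.2 kb away on chromosome 2 and was not near 0 in WT, at 2.81, 3.50 and 2.51 CPM against 23.6, 20.1 and 25.4 CPM. It rose in all 3 knockout libraries (log2 fold change 2.97, SE 0.17, adjusted p = 1.73e-05).

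**Figure D3:**
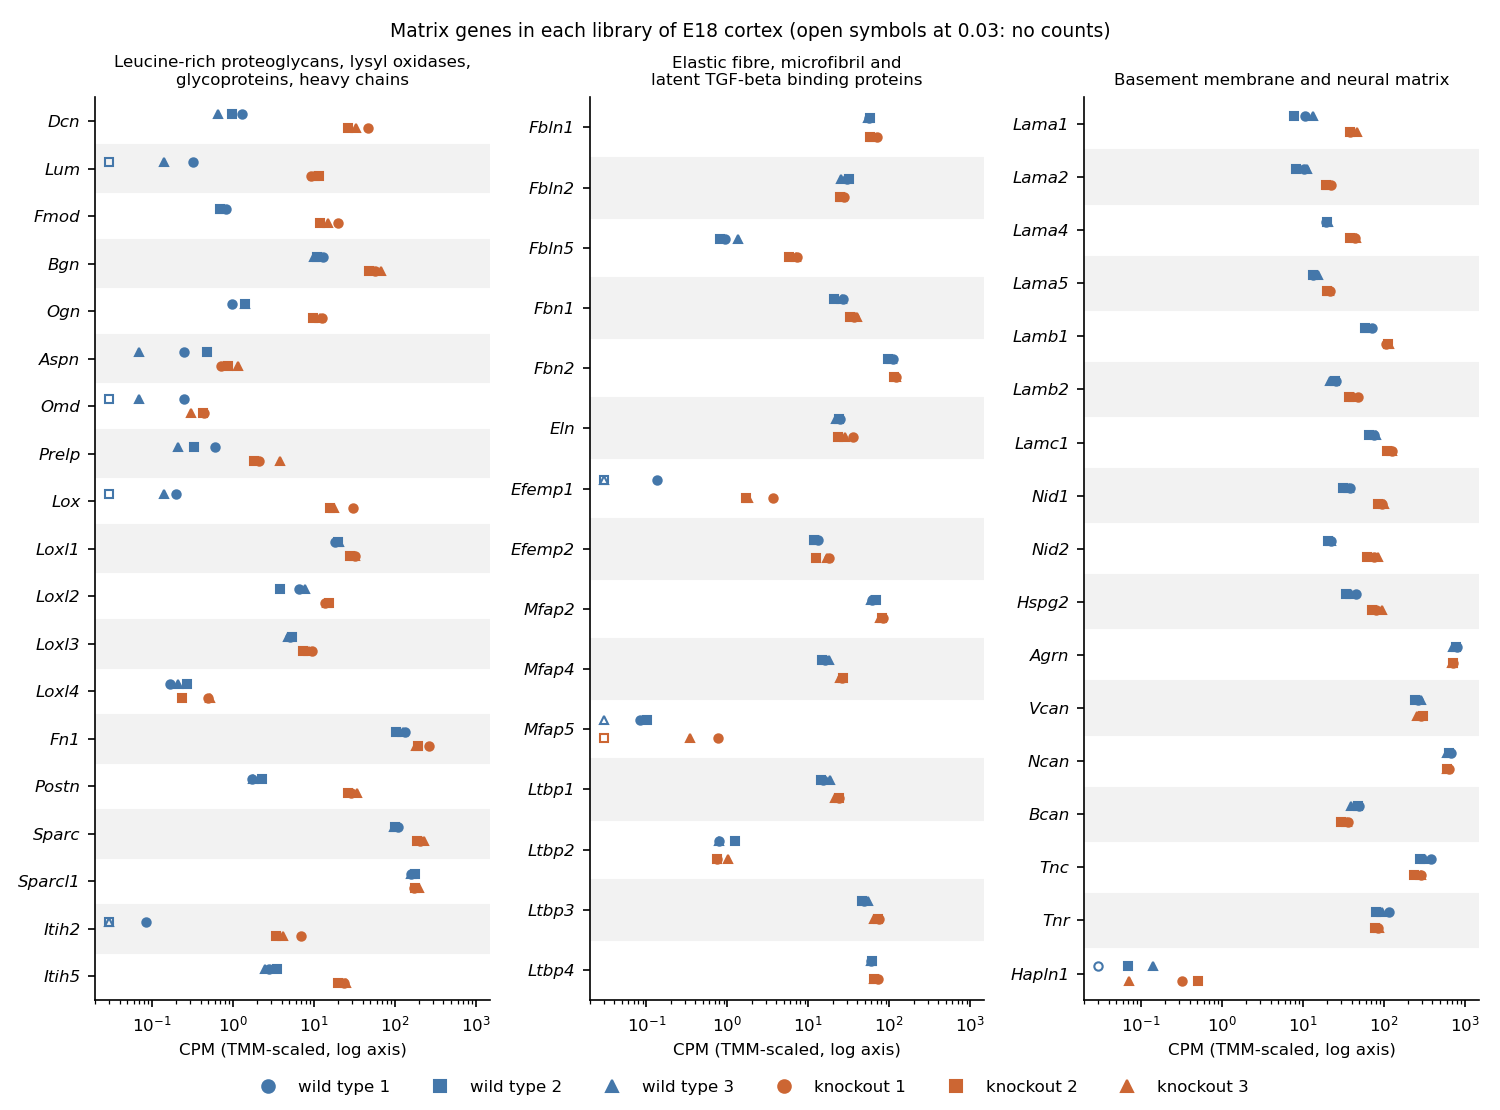
Level in CPM (log axis) of all 51 genes in each WT and knockout library; each symbol is 1 library, and open symbols at the left edge are libraries with no counts. Lox, Itih2, Dcn and Lum separate the groups widely, whereas the groups of Agrn, Ncan, Vcan and Tnc overlap.

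All 7 laminin chains listed rose, by log2 fold changes of 0.57 to 1.97 (median 0.83). Their summed level went from 216 ± 15.4 CPM in WT to 401 ± 23.5 in knockout (SD, n = 3). The largest change was in Lama1 (ENSMUSG00000032796.8, chromosome 17, 67697259 to 67822647, mm10), for the alpha 1 chain, the early embryonic chain that is also found in the pial basement membrane. Lama1 stood at 10.7, 7.75 and 13.4 CPM in WT and 38.5, 38.8 and 47.1 CPM in knockout (1.97, SE 0.19, adjusted p = 0.000654). Lama4, the chain typical of vessel walls, stood at 19.2, 19.96 and 20.5 CPM against 43.6, 38.5 and 45.3 CPM (1.09, SE 0.10, adjusted p = 0.000217). Both groups were tight and well apart. Lama2, for the alpha 2 chain of muscle and glial basement membranes, stood at 10.3, 8.29 and 11.3 CPM against 22.4, 19.2 and 20.7 CPM (1.06, SE 0.14, adjusted p = 0.00242). The smallest change of the 7 was in Lama5, for the broadly made alpha 5 chain, at 13.3, 13.4 and 15.3 CPM against 21.7, 19.7 and 21.0 CPM (0.57, SE 0.11, adjusted p = 0.0149). Its call was lost without WT library 1 or 2, or without knockout library 1 or 3 (highest adjusted p = 0.0718).

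The partner beta and gamma chains rose as well. Lamb1 stood at 70.8, 58.3 and 60.6 CPM in WT and 107, 113 and 118 CPM in knockout (0.83 on the log2 scale, SE 0.09, adjusted p = 0.000654). Lamb2 stood at 25.4, 25.0 and 21.8 CPM against 47.6, 37.8 and 43.1 CPM (0.83, SE 0.11, adjusted p = 0.00252). Lamc1, the gamma chain of most laminins, stood at 76.5, 65.7 and 80.5 CPM against 128, 109 and 126 CPM (0.70, SE 0.10, adjusted p = 0.00298). In none of the 3 did the groups overlap. Among the other laminin genes, Lamc3, for the gamma 3 chain of the pial surface, had a larger log2 fold change than any of these and rose from 242, 263 and 230 counts in WT to 1510, 1354 and 1501 in knockout (2.48, SE 0.14, adjusted p = 1.77e-05).

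Per kilobase of exon, Lama1 made up more of the alpha chains in knockout. It took 23.1% ± 3.86 of the alpha chain level in WT and 38.7% ± 2.27 in knockout, whereas Lama5 took 26.3% ± 1.27 and 16.5% ± 1.01 (SD, n = 3). Both shares were separate between groups in all 6 libraries. Lama4 (35.4% ± 3.37 and 31.8% ± 0.962) overlapped between the groups and Lama2 (13.02% ± 0.919 and 11.5% ± 0.958) also did. Lamb1 kept 61.4% ± 2.22 and 61.5% ± 3.39 of the beta chain level. Among gamma chains, Lamc3 took 7.10% ± 1.18 in WT and 20.8% ± 1.80 in knockout, and Lamc1 91.4% ± 1.22 and 78.6% ± 1.98, with no overlap in either.

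The linkers of the basement membrane rose too, with agrin as the exception. Nid1, for nidogen-1, which joins laminin to collagen IV, stood at 38.5, 31.2 and 36.8 CPM in WT and 95.9, 86.1 and 100.3 CPM in knockout (1.41 on the log2 scale, SE 0.10, adjusted p = 5.58e-05). Nid2, for nidogen-2, stood at 22.5, 20.6 and 22.6 CPM against 76.8, 62.0 and 85.2 CPM (1.77, SE 0.12, adjusted p = 4.09e-05). Hspg2, for perlecan, stood at 46.1, 34.0 and 39.4 CPM against 80.7, 71.2 and 93.9 CPM (1.04, SE 0.13, adjusted p = 0.00219). In all 3, each knockout library exceeded each WT library. Agrn, for agrin, a heparan sulfate proteoglycan that neurons also make, stood at 798, 778 and 709 CPM in WT and 718, 718 and 699 CPM in knockout (-0.10, SE 0.07, adjusted p = 0.453). Its groups overlapped. Agrn had the highest level per kilobase of its class in both groups. The class sum went from 1075 ± 51.3 to 1364 ± 45.4 CPM, whereas the sum of the 10 others went from 313 ± 25.8 to 652 ± 53.4 CPM (ratio 2.08).

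Apart from the low Hapln1, neural matrix genes were high in both groups and mostly did not pass the test. Bcan (ENSMUSG00000004892.13, chromosome 3, 87987531 to 88000230, minus strand, mm10) encodes brevican, the lectican that increases as the brain matures. It stood at 49.1, 47.7 and 39.7 CPM in WT and 36.7, 29.5 and 34.7 CPM in knockout. Every knockout library lay below every WT library, the nearest being WT library 3 and knockout library 1 (log2 fold change -0.44, SE 0.11, adjusted p = 0.0498). The call sat at the threshold: it was lost when any library but WT 3 was left out (highest adjusted p = 0.181) and with upper-quartile scaling (adjusted p = 0.0524). Ncan, for neurocan, stood at 684, 645 and 605 CPM against 646, 602 and 603 CPM (-0.06, SE 0.07, adjusted p = 0.67). Vcan, for versican, the lectican of early brain and also of fibroblasts and vessels, stood at 265, 245 and 291 CPM against 288, 304 and 259 CPM (0.09, SE 0.09, adjusted p = 0.615). The groups of both overlapped. Tnc, for tenascin-C, made by radial glia and astrocytes, stood at 388, 282 and 325 CPM against 292, 234 and 292 CPM (-0.28, SE 0.13, adjusted p = 0.253). Tnr, for tenascin-R, made by oligodendrocytes and some neurons, stood at 115, 80.7 and 94.9 CPM against 86.0, 78 and 86.7 CPM (-0.22, SE 0.12, adjusted p = 0.349). Both had a high WT library 1 and overlapped. Hapln1, the link protein that fastens lecticans to hyaluronan, had 0, 4 and 8 counts in WT and 22, 32 and 4 in knockout. That is about 3 fragments against 14 (ratio 4.36, 95% interval 1.22 to 23.6), too few for the test, and its groups overlapped.

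Within the lecticans the shares per kilobase were near constant: Ncan took 75.1% ± 1.13 in WT and 75.4% ± 0.654 in knockout, and Vcan 15.5% ± 1.84 and 17.3% ± 1.34 (SD, n = 3). The share of Bcan was 9.37% ± 0.701 and 7.27% ± 0.686, separate in all 6 libraries. Lectican genes lie beside link protein genes. Hapln2, 21.5 kb from Bcan, had 14, 27 and 30 counts against 15, 8 and 34. Hapln4, 2.2 kb from Ncan, had 66, 28 and 47 against 40, 25 and 12. Acan (aggrecan) had 41, 30 and 12 against 16, 8 and 10, and its neighbour Hapln3 134, 103 and 125 against 142, 88 and 161. None of these neighbours passed the test.

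**Figure D4:**
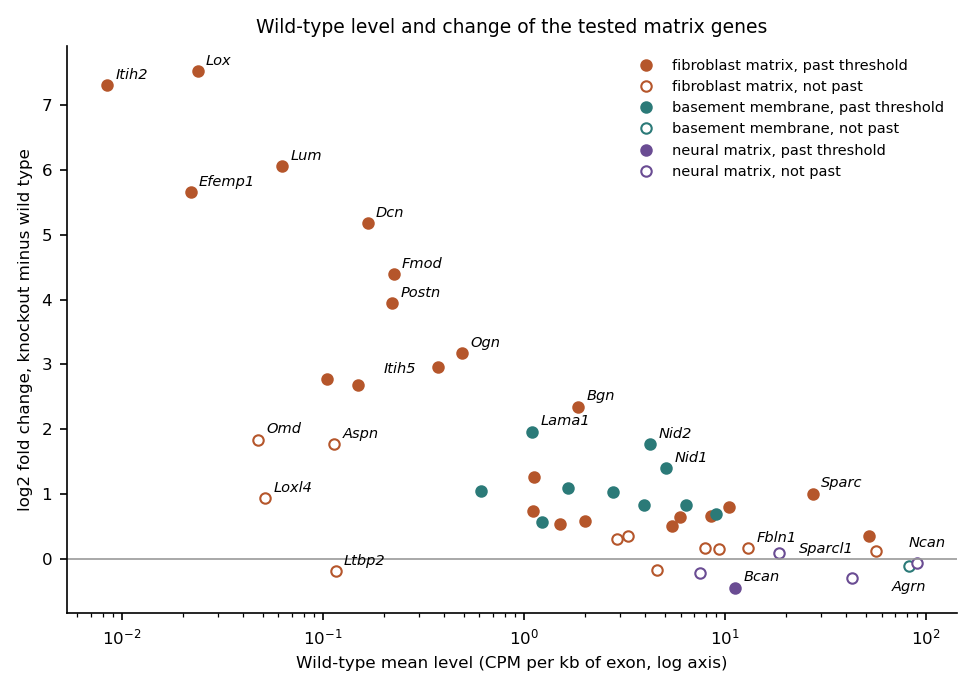
WT level in CPM per kilobase of exon (log axis) against the log2 fold change of the 49 tested genes, coloured by class. The largest changes are in genes low in WT, and genes low in both groups were not tested. Ncan and Agrn, the highest per kilobase in WT, lie at -0.06 and -0.10.

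The size of change varied with the level in WT. Across the 49 genes, Spearman's rho between the WT level per kilobase and the log2 fold change was -0.75, against -0.22 over 19815 genes tested. Genes are not independent replicates, and the fold change contains the WT level. The count filter also kept genes near 0 in WT, such as Lox and Itih2, only through their knockout counts. Mfap5 and Hapln1, low in both groups, were left out. The rho is therefore a description only. In absolute terms, summed CPM of the fibroblast class went from 901 ± 19.8 in WT to 1441 ± 102 in knockout (SD, n = 3, ratio 1.60). The neural class went from 1386 ± 104 to 1291 ± 52.0 (ratio 0.931), with overlapping libraries. The 3 knockout libraries did not rank alike. Of the 32 genes that rose, 16 were highest in knockout library 1, 12 in library 3 and 4 in library 2, and 23 were lowest in library 2. The highest knockout library exceeded the lowest by a median of 1.25-fold. Median log2 levels over the WT mean were 0.97, 0.72 and 0.99 for the fibroblast class in knockout libraries 1 to 3 and 1.03, 0.85 and 1.06 for the basement membrane class. The neural class stood at -0.16, -0.30 and -0.15. Ttr was highest in knockout library 3 and lowest in knockout library 1. The fibroblast and basement membrane medians were also highest in knockout library 3, slightly above library 1, and lowest in library 2. Whether the matrix genes changed along with choroid plexus content was not tested.

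**Figure D5:**
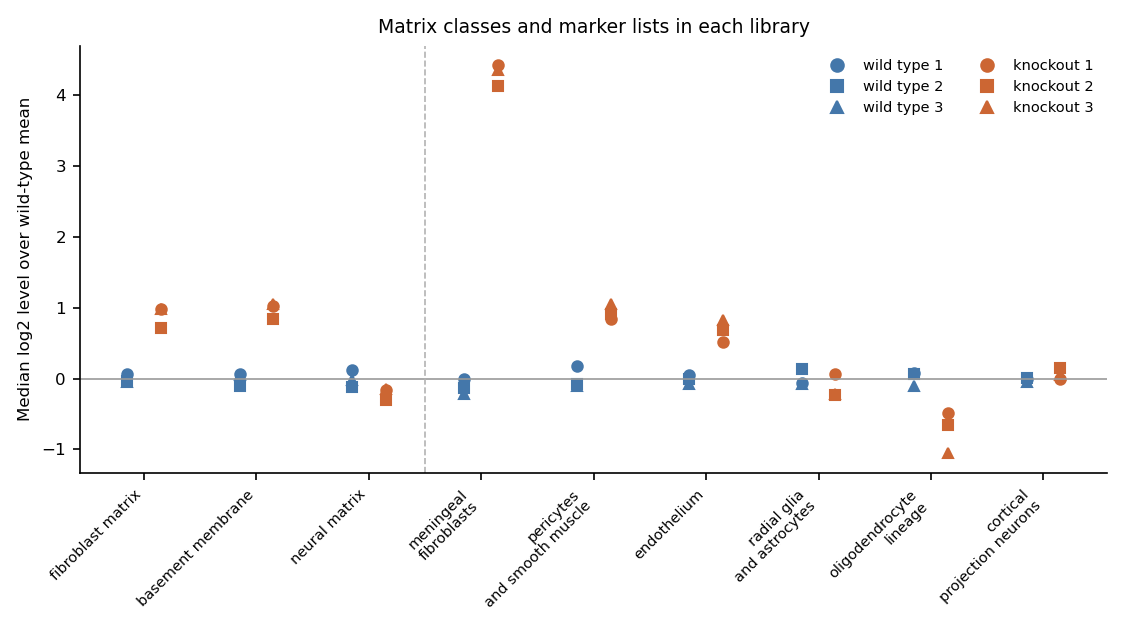
Median log2 level over the WT mean for each library, for the 3 matrix classes and for marker lists of other cell types. Knockout libraries stand between 0.72 and 1.06 in the fibroblast and basement membrane classes and at 4.13 to 4.43 for meningeal fibroblast markers, and below 0 in the neural class.

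Most markers of fibroblasts, mural cells and endothelium rose as well. The share that rose was 100% of meningeal fibroblast, 77.8% of pericyte and smooth muscle and 60% of endothelial markers. It was 83.3% of macrophage and microglial markers, and 5.21% over all genes tested. All 13 meningeal fibroblast markers rose, Col1a1 among them (11 without knockout libraries 2 and 3), and their sum went from 21.1 to 28.4 CPM in WT to 518 to 714 CPM in knockout. Pericyte and smooth muscle markers rose in 7 of 9 cases (170 to 187 CPM in WT, 296 to 334 in knockout) and endothelial markers in 6 of 10 (285 to 314 and 443 to 538). No endothelial marker was called lower in edgeR, but 1 was lower at an unadjusted p under 0.05 (-0.33 on the log2 scale). For that list DESeq2 called 9 higher and 1 lower, and limma-voom 6 and 0. Macrophage and microglial markers rose in 10 of 12 (35.0 to 39.9 and 120 to 151). Choroid plexus markers summed to 0.327 to 0.733 CPM in WT and 3.04 to 476 in knockout. In edgeR none of 5 tested passed (4 were higher at an unadjusted p under 0.05), while DESeq2 called 3 higher and limma-voom 0. Folr1 was at 0 in all WT libraries. Erythroid markers, with 0 of 7 past the test in edgeR, DESeq2 and limma-voom and 1 at an unadjusted p under 0.05, summed to 1520 to 2106 CPM and 1886 to 2203 CPM, which overlapped. Beside the neural class, radial glia and astrocyte markers summed to 936 to 1080 CPM in WT and 852 to 1030 in knockout. Of the 9, 1 was higher (Pax6) and 0 lower in edgeR, with 3 lower at an unadjusted p under 0.05, while DESeq2 called 1 higher and 2 lower and limma-voom 1 and 0. Oligodendrocyte lineage markers summed to 86.7 to 116 CPM and 69.1 to 88.7 CPM, with 3 of 6 lower and 1 higher. Their median log2 level over the WT mean was -0.49, -0.66 and -1.06 in knockout libraries 1 to 3. The lower calls were not kept without knockout libraries 2 and 3. Apart from Folr1, no marker of these lists was at 0 in all WT libraries. Without knockout libraries 2 and 3, 1 pericyte, 1 endothelial and 4 macrophage or microglial markers passed. The part that these cell types have in the results on matrix genes was not tested.

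Other genes of the same pathways, from lists chosen with earlier results known, were uneven. Over all genes tested, 5.21% rose and 2.53% fell. Of 27 matrix receptors, 14 rose and 1 fell (51.9% and 3.7%, median log2 fold change 0.68). Integrin alpha chains led, with Itga11 at 2.06, Itga8 at 1.85, Itga2 at 1.64 and Itga7 at 1.61. Itga11 encodes a collagen receptor of fibroblasts and Itga8 a nephronectin and fibronectin receptor. Sdc3, a syndecan of neurons, fell (-0.32). The number of higher receptors was 7 to 14 when 1 library was left out and 3 without knockout libraries 2 and 3. The Itga7 call was lost if WT library 1 or knockout library 1 was omitted (highest adjusted p = 0.0591), and that of Sdc3 without any library but WT 3 (highest adjusted p = 0.195). Of 30 matrix proteases and inhibitors, 7 rose and 1 fell (23.3% and 3.33%, median 0.14). Adamts12 (3.36), Adamts15 (2.41) and Adamts9 (2.13) are secreted metalloproteases, and Pcolce (2.61) enhances procollagen processing. Timp2, a metalloprotease inhibitor, fell (-0.37), a call lost without any library but WT 3 (highest adjusted p = 0.175).

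Of 16 further basement membrane genes, 6 rose (37.5%, beside 5.21% over all genes tested, median log2 fold change 0.48). No such gene fell in edgeR, DESeq2 or limma-voom, and 0 were lower at an unadjusted p under 0.05 in edgeR. With 1 library left out, 4 to 6 were higher. The 4 with the highest log2 fold changes were Smoc2 (2.67), Frem1 (2.56), Lamc3 (2.48) and Egflam (2.14). The Smoc2 value was 1.97 without knockout library 1, below that of Lamc3, and its call was lost without WT library 1 or 2, or without the first knockout library (highest adjusted p = 0.0701). Of 23 tested further fibroblast glycoproteins, 8 rose (34.8%, median 1.10), and 4 to 7 with 1 library left out. The 4 with the highest log2 fold changes were Svep1 (5.90; 6.63 without WT library 2), Islr (3.28), Mgp (2.59; 3.28 without WT library 3) and Tgfbi (2.11). Of the other 4, Thbs2, Matn2 and Fbln7 lost their calls in 2 to 5 of the 6 fits with a library left out. Islr is also among the meningeal markers, and the call of Mgp, the matrix Gla protein that restrains calcification, was lost without WT library 1 or 2, or without the first knockout library (highest adjusted p = 0.0833). In other leucine-rich proteoglycans, 0 of 4 tested passed in edgeR, DESeq2 or limma-voom, and 0 had an unadjusted p under 0.05.

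Few genes that build the sugar chains of the neural proteoglycans passed the test. Of 23 tested genes of chondroitin sulfate and hyaluronan synthesis, 2 rose and 1 fell (median log2 fold change -0.02). That is 8.7% and 4.35%, beside 5.21% and 2.53% over all genes tested. DESeq2 called 2 higher and 3 lower, and limma-voom 2 and 1. Those that rose were Chst14 (0.97) and Dse (0.87), which both act in making dermatan sulfate. Chsy3, a chondroitin chain polymerase, fell (-0.93). With 1 library left out, 0 to 2 of these genes were higher and 0 to 1 lower. Each call was lost in 4 or 5 of the 6 such fits: Chst14 held only without WT library 2, Dse only without WT library 3 or knockout library 2, and Chsy3 only without WT library 3 or knockout library 3. Of 11 further neural matrix genes, none rose and 2 fell (0% and 18.2%, median -0.09), beside 5.21% and 2.53% over all genes tested. In a list of 11, none higher is near the share over all genes. DESeq2, limma-voom and an unadjusted p under 0.05 in edgeR also gave 0 higher. Cspg5, for the neural proteoglycan neuroglycan C, stood at 150, 157 and 129 CPM in WT and 96.8, 92.3 and 99.4 CPM in knockout (-0.60, SE 0.08, adjusted p = 0.00315). It was lower in all 3 knockout libraries and kept its call with any 1 library left out. Spock2, for the brain proteoglycan testican-2, fell by 0.41 on the log2 scale, a call lost without any library but WT 3 (highest adjusted p = 0.157).

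The counts over classes rested on the libraries to different degrees. With 1 library left out in turn, 16 to 20 fibroblast genes and 9 or 10 basement membrane genes passed, and 24 of the 33 calls held in all 6 such fits. Without knockout libraries 2 and 3, which leaves 1 knockout library assumed to vary like the WT libraries, 10 fibroblast and 9 basement membrane genes passed. The calls lost there were those of Lum (adjusted p = 0.263), Prelp (0.12), Lox (0.0726), Loxl1 (0.108), Loxl2 (0.237), Loxl3 (0.133), Fbn1 (0.266), Efemp1 (0.193), Mfap2 (0.317), Mfap4 (0.183), Ltbp1 (0.336), Ltbp3 (0.117), Lama5 (0.225) and Bcan (0.655). Of the 33 genes called, 0 changed direction in any of the 16 alternatives.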

How the data were processed

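The deposited table holds 1 whole number per gene and library, deposited by the authors as gene counts. These were handled as estimated counts, since low values pile up at 4, 8 and 12, as if each fragment added about 4. Per the submitters' processing notes, the tools included HISAT2 2.0.5 and StringTie 1.3.4 beside Trim Galore 0.4.4 and FastQC 0.11.9, with genome build mm10. The sources used here do not give the counting program, its annotation or its use of strand. Of 55401 rows, 55141 were named from GENCODE M21, and unnamed rows held at most 0.0238% of a library's counts. Coordinates are from that annotation.

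Counts were filtered (filterByExpr), scaled (TMM) and compared over all 6 libraries by edgeR 4.0.16 (quasi-likelihood F-test, R 4.3.3), with Benjamini-Hochberg adjustment over 19844 genes, threshold 0.05. SE is the absolute log2 fold change over the square root of F. CPM are TMM-scaled and per kilobase of merged exons where genes are compared. Ratios of near-zero genes use fragments (count divided by 4) with exact Clopper-Pearson 95% intervals, covering counting error only; the floor is 3 fragments or 12 counts over a group. The fit was tested on simulated data. Replicates differed by more than counting noise (chi-square per degree of freedom 11.8 to 17.4).

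The genes, classes, marker and pathway lists were chosen with earlier results of these data known. All 51 genes are eligible to be named. Values per library are given for those with the largest changes in each role, those whose call an alternative removes and those that go against their role. From each pathway list up to 4 genes per direction past the threshold are named by size, and neighbours of the proteoglycan clusters in any case. The alternatives were limma-voom with sample weights (limma 3.58.1), DESeq2 1.42.0, scaling by RLE or upper quartile, no count filter, a CPM minimum of 1 in 3 libraries, the replicate block, counts divided by 4, each library left out, and knockout libraries 2 and 3 left out. A covariate of Y-linked expression was added after seeing the data.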

Additional observations from a re-analysis of the deposited data

How the results depend on the processing

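Over all genes, 1536 passed the threshold. DESeq2 called 2404, the fit without knockout libraries 2 and 3 called 305, and fits with 1 library left out called 609 to 2358. Fibroblast matrix genes past the threshold numbered 22, 10 without knockout libraries 2 and 3, and 16 to 20 with 1 library left out; basement membrane genes numbered 10, and 9 to 10 with 1 library left out. Neural genes past the threshold numbered 1, 2 with Y-linked expression as a covariate (Bcan, and Tnc at -0.45, adjusted p = 0.0341), 0 with upper-quartile scaling, 0 without knockout libraries 2 and 3, and 0 to 1 with 1 library left out. The labels give same-numbered libraries only a number in common. The correlations of their deviations from group means were 0.028, -0.003 and 0.002. Correlations over all tested genes cannot show whether such libraries shared a factor that acts on fewer genes. With the replicate number as a block, 941 genes passed, 18 fibroblast, 10 basement membrane and 0 neural genes among them. That fit lost the calls of Lum (adjusted p = 0.0571), Loxl3 (0.0631), Mfap2 (0.0578), Ltbp1 (0.0858) and Bcan (0.088). The Y-linked covariate lost those of Loxl3 (0.0814), Fn1 (0.059), Fbn1 (0.0736), Mfap2 (0.0755) and Ltbp1 (0.0513). The sign reversed in 2 cases, both without a call: Ltbp2 at 0.079 without WT library 2 (-0.34 to 0.079 with 1 library left out), and Ncan at 0.012 without knockout libraries 2 and 3. Of 778 values of single genes over 16 alternatives, 718 kept direction and side of the threshold, and 57 lost a call. The cause of these changes was not tested, beyond the smaller number of libraries where some were left out. Counts at or near the floor limit Lum, Omd, Lox, Efemp1, Itih2, Mfap5 and Hapln1. The log2 fold change of Omd was 1.27 without WT library 2 and 3.40 without WT library 1.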
